A study of Mus musculus with 13 samples.

Results

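The subcortical maternal complex is a protein assembly that mouse oocytes build during growth and hand on to the embryo. Its 6 genes, Nlrp5, Ooep, Padi6, Khdc3, Tle6 and Zbed3, were chosen by name and found by matching gene identifiers to symbols, and all 6 were present among the 22442 genes of the Ribo-seq tables and the 21898 genes of the acRIP-seq tables. NLRP5 (also called MATER), OOEP (FLOPED) and TLE6 form the core of the complex, to which KHDC3 (FILIA), PADI6 and ZBED3 bind. The complex lies under the oocyte's plasma membrane and belongs to the cytoplasmic lattices, fibres on which the oocyte stores proteins, and loss of its members from the oocyte commonly stops the embryo in its earliest cleavages. Oocytes resume meiosis from the germinal vesicle (GV) stage and arrest again at metaphase II (MII), without transcription, so that protein synthesis draws on stored maternal mRNA.

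Ribo-seq, which sequences the mRNA fragments that ribosomes protect from RNase (RPFs), was measured in 11 libraries of about 100 C57BL/6J oocytes each, with 3 libraries of WT GV, 3 of Nat10-ZcKO GV, 2 of WT MII and 3 of Nat10-ZcKO MII oocytes. In Nat10-ZcKO females, written Nat10lox/- with Zp3-Cre in the paper, the transgene removes the floxed Nat10 allele in oocytes from the primary follicle onward. Granulosa cells keep the floxed allele, while the paper's notation marks the other allele as null. NAT10 is the enzyme that writes N4-acetylcytidine (ac4C) on RNA. The series' design text adds tamoxifen injection for 3 days to WT and knockout Ribo-seq animals alike, and oocytes came from females primed at 21 days of age with PMSG for GV or with PMSG and hCG for MII oocytes. acRIP-seq, a pull-down of fragmented mRNA with an antibody, was made once with anti-ac4C and once with anti-IgG, each from about 2000 WT GV oocytes.

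In the mouse genome (GRCm38, GENCODE M21) Nlrp5 lies at chr7:23385889-23441922, Ooep at chr9:78376109-78378725, Padi6 at chr4:140727355-140742643, Khdc3 at chr9:73101836-73104438, Tle6 at chr10:81590904-81601073 and Zbed3 at chr13:95323612-95337841. The union of annotated CDS runs from 492 bases in Ooep and 684 in Zbed3 to 3334 in Nlrp5, with 1338 in Khdc3, 1862 in Tle6 and 2091 in Padi6, so that equal counts stand for unlike levels. The 3′ ends of the 6 mRNAs are shown because stored oocyte mRNAs are commonly switched on or off there: the polyadenylation signal (AATAAA or ATTAAA) and, in some mRNAs, a U-rich cytoplasmic polyadenylation element (CPE, searched here as TTTTAT or TTTTAAT) lie close to the end. The last 30 bases of each annotated principal transcript are given 5′ to 3′ as DNA letters (GENCODE M21, GRCm38), with these motifs in capitals.
Nlrp5: gaatgaAATAAAcacagcatttagaaaagc
Ooep: aactcaggaccacaggctatgagtagcata
Padi6: agagccAATAAAgcatggtattctgaatgt
Khdc3: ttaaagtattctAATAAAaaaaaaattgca
Tle6: agttgcgtgtAATAAAacaattgaaatggc
Zbed3: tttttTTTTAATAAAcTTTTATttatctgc
The stretches lie at chr7:23441893-23441922 (Nlrp5, plus strand), chr9:78376109-78376138 (Ooep, minus), chr4:140727355-140727384 (Padi6, minus), chr9:73104409-73104438 (Khdc3, plus), chr10:81590905-81590934 (Tle6, minus) and chr13:95337812-95337841 (Zbed3, plus), each within the 3′ UTR. Zbed3 was the member with CPE letters in its last 100 bases: TTTTAAT began 25 bases from the end and shared bases with the AATAAA that began 21 bases from the end, and TTTTAT began 14 bases from the end. Among 19360 transcripts with a 3′ UTR of at least 100 bases, 17.9% held CPE letters and 78.7% a polyadenylation signal in that window, on the transcript strand. Nlrp5, Padi6, Khdc3 and Tle6 held a signal at 24, 24, 18 and 20 bases from the end. The annotated end of Ooep, 1446 bases after its stop codon, held neither motif, and a match or its absence describes these letters only.

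Total counts on coding sequences (CDS) ranged from 4815 to 279464 per library, and 3 libraries stood apart from the rest. WT MII replicate 2 held 4815 counts on 523 genes, so a member at 0 there may still reach 623 CPM (counts relative to the library total), taking 3 counts as the limit of a count of 0. Nat10-ZcKO GV replicate 1 held 2 counts on 12 oocyte markers (0.00472% of its counts; Zp1, Zp2 and Zp3 code for the egg coat, and Zp1 and Zp2 were at 0), and replicate 2 held 1.08%, against 2.63% to 3.48% in the WT GV libraries. The same 2 libraries had 1.75% and 0.360% of their counts on 16 adipocyte markers and 0.524% and 0.135% on 10 smooth muscle markers, where the WT GV libraries had at most 0.0437% and 0.100%. Markers of granulosa and cumulus cells took 0.925%, 0.249% and 0.246% in the 3 knockout GV libraries and 0.355% to 0.474% in WT GV. The part of these other cells in the results below was not tested, and fewer oocytes in a library cannot be told apart from fewer RPFs per oocyte. Nat10 itself gave 8, 11 and 3 counts in WT GV, 4, 1 and 5 in knockout GV, 1 and 5 in WT MII and 6, 3 and 2 in knockout MII libraries, too few to check the genotype, and fragments from outside the floxed exons would still be counted.

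**Figure D1:**
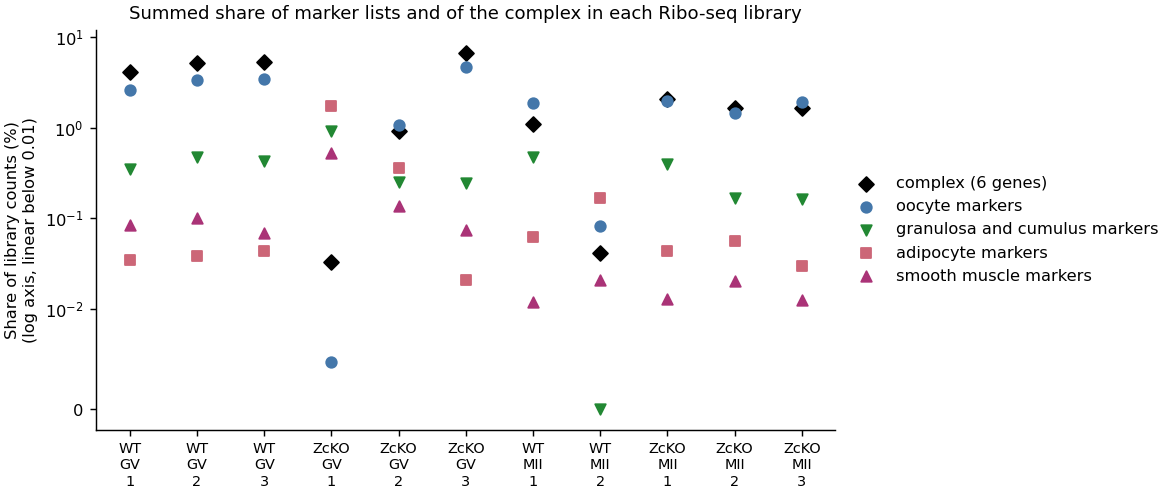
Share of each Ribo-seq library's counts (percent, log axis that is linear below 0.01) on the 6 genes of the complex and on 4 marker lists, by group and replicate number. Nat10-ZcKO GV replicate 1 and WT MII replicate 2 hold 0.0331% and 0.0415% of their counts on the complex, while Nat10-ZcKO GV replicate 3 holds 6.74%, above the 3 WT GV libraries.

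In WT GV oocytes the complex took 4.11%, 5.28% and 5.40% of all CDS counts in the 3 libraries. On a per-length scale (TPM, counts divided by CDS length and scaled to the same sum in each library) Zbed3 had the highest mean, 16774 ± 2623 (SD, n = 3), and ranked 4 among 11412 genes with a count. Padi6 followed at 15477 ± 3147 TPM and rank 6, and its libraries overlapped those of Zbed3, which ranked above it in replicates 1 and 3 and below it in replicate 2. Ooep, at 9109 ± 1378 TPM and rank 8, lay below both in each library. Nlrp5 at 2904 ± 553 TPM and Tle6 at 2595 ± 545 TPM, ranks 30 and 34, had overlapping ranges, although Nlrp5 ranked above Tle6 within each of the 3 libraries. Khdc3 was the lowest at 632 ± 35.7 TPM and rank 170, although 56.1% of its CDS is shared with an annotated overlapping gene, Gm20509, so that part of its fragments may have been left uncounted. Without WT GV replicate 1, Padi6 passed Zbed3.

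At MII the per-length order had Zbed3 far ahead. In Nat10-ZcKO MII oocytes Zbed3 had a mean of 27888 ± 3716 TPM (SD, n = 3) and ranked 2 or 3 among all genes of each library. Ooep followed at 1164 ± 621 TPM and Padi6 at 972 ± 188 TPM, with ranges that overlapped. Tle6 had 451 ± 65.1 TPM, above Nlrp5 at 307 ± 67.7 TPM in the mean and without overlap of their ranges, and Khdc3 had 32.0 ± 22.5 TPM. In WT MII replicate 1 the order of the 6 genes was the same, from Zbed3 at 16662 TPM and rank 5 over Ooep at 565, Padi6 at 564, Tle6 at 433 and Nlrp5 at 201 to Khdc3 at 28.7 TPM.

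**Figure D2:**
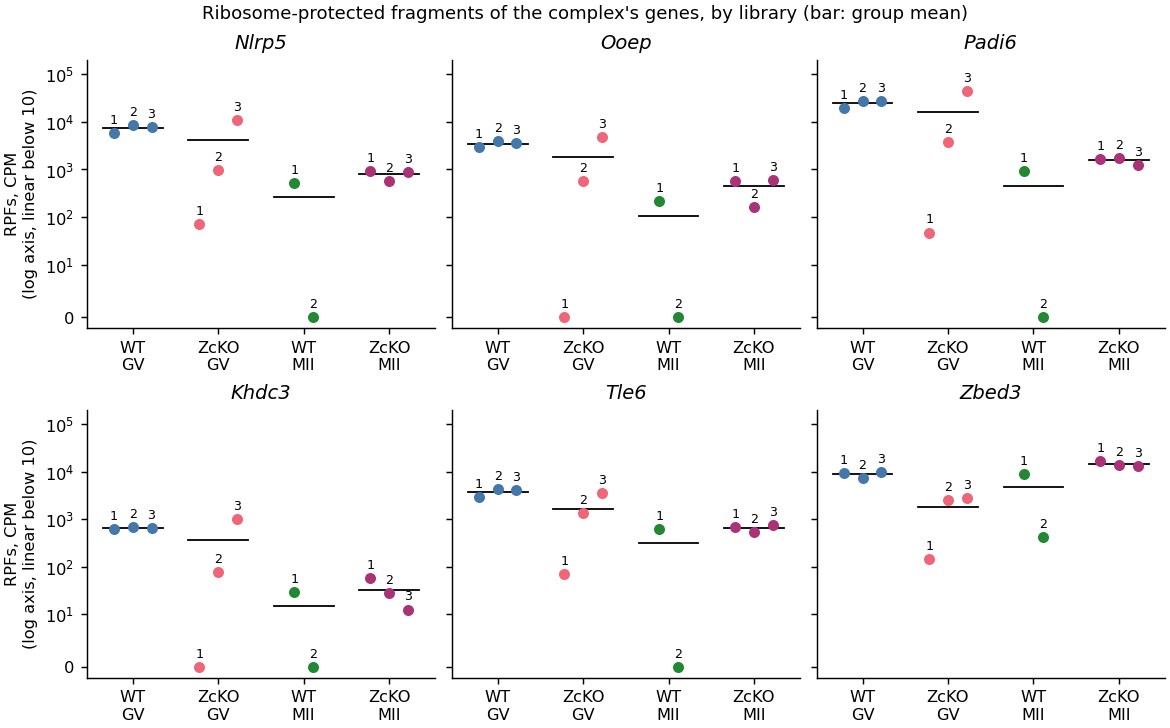
RPFs of each gene in CPM (log axis, linear below 10) in every Ribo-seq library, numbered by replicate, with the group mean as a bar. Nlrp5, Ooep, Padi6, Khdc3 and Tle6 are high in the 3 WT GV libraries and in Nat10-ZcKO GV replicate 3 and low in all MII libraries, while Zbed3 is at 7343 to 9912 CPM in WT GV and at 8810 CPM or more in all MII libraries but WT MII replicate 2.

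In WT oocytes, the core genes, Padi6 and Khdc3 had fewer RPFs in both MII libraries than in each GV library, and Zbed3 did not. Padi6, a peptidylarginine deiminase family member that the lattices require, had 19372, 27882 and 27886 CPM in WT GV and 912 and 0 CPM in WT MII libraries. The MII libraries lay far below each GV library, and the fitted log2 fold change was −5.18 ± 2.50 (SE; edgeR quasi-likelihood test, adjusted p = 0.11). Without WT MII replicate 2 it was −4.69 ± 0.42 (edgeR, adjusted p = 2.5e-07), where the lone MII library was assumed to vary like the GV libraries.

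Nlrp5, an NLR family protein at the centre of the core, had 5940, 8591 and 7957 CPM in WT GV and 519 and 0 CPM in WT MII libraries, without overlap. Its log2 fold change was −4.19 ± 2.20 (edgeR, adjusted p = 0.14) with both MII libraries and −3.76 ± 0.35 (adjusted p = 3.9e-07) without replicate 2. Ooep, a KH-like protein of the core, had 2915, 3907 and 3588 CPM in GV and 215 and 0 CPM in MII libraries. The groups did not overlap, with a log2 fold change of −4.19 ± 2.06 (edgeR, adjusted p = 0.12), and −3.92 ± 0.34 (adjusted p = 2.4e-07) without replicate 2. Tle6, the core member related to transducin-like enhancer proteins, had 2880, 4348 and 3994 CPM in GV and 623 and 0 CPM in MII libraries. Its fitted value was the smallest in size of these genes, −2.93 ± 1.93 (edgeR, adjusted p = 0.24) and −2.49 ± 0.32 (adjusted p = 9.3e-06) without replicate 2. Khdc3, a KH domain protein tied to chromosome stability in the embryo, rested on few counts, 91, 194 and 62 in GV and 4 and 0 in MII libraries, or 626, 694 and 645 against 29.7 and 0 CPM. It fell by 4.18 ± 1.52 on the log2 scale (edgeR, adjusted p = 0.037) and by 4.35 ± 0.47 (adjusted p = 2.0e-06) without replicate 2. The call with both MII libraries was lost when any 1 WT GV library was left out (adjusted p from 0.17 to 0.63), and the limit of 623 CPM in MII replicate 2 lies close to the GV level of this gene.

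Zbed3, a zinc finger protein that joins the complex, had 9404, 7343 and 9912 CPM in WT GV and 8810 and 415 CPM in WT MII libraries. WT MII replicate 1 lay within the range of the GV libraries, and replicate 2 held 2 counts. The log2 fold change was −0.49 ± 1.90 (edgeR, adjusted p = 0.86) with both and 0.07 ± 0.28 (adjusted p = 0.85) without replicate 2, so the direction turned with that library, and it was also positive, at 0.73, when libraries were scaled to the oocyte markers. Those markers themselves differed between stages, with Mos at 5.30, Nobox at −4.43 and Zp2 at −5.97 with both MII libraries. Of 10 tested, 4 were above 0 (median −1.10, against −0.44 over all genes), so this scale also carries stage differences of the markers. In the full fit Khdc3 was the 1 member of 6 called lower, where 11.5% of 2045 genes were called lower. Ooep and Padi6 also had an unadjusted p under 0.05 in edgeR. Without replicate 2, 5 of 6 members were called lower and none higher, against 24% of 3264 genes called lower and 20.9% called higher. DESeq2 on all 5 libraries also called those 5 lower, against 41.3% of genes. The 5 members whose WT groups did not overlap stood beside 52.2% of 2045 genes that were lower in both MII libraries, and replicate 2 held no count of any of the 5.

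Markers of granulosa and cumulus cells took 0.472% of counts in WT MII replicate 1 and 0% in replicate 2, against 0.355% to 0.474% in WT GV, but their makeup differed between stages. Ptx3, Tnfaip6 and Ptgs2, genes of the expanding cumulus, had 285, 75 and 40 counts in WT MII replicate 1, and 0, 0 and at most 2 counts in each WT GV library. Amh and Inhbb, of the same list, went the other way, with 1 and 5 counts in WT MII replicate 1. In the WT GV libraries Amh had 60, 93 and 63 counts and Inhbb 68, 160 and 57. In the fit without replicate 2, 4 of the 12 listed genes tested had log2 fold changes above 0 (median −0.60, against −0.35 over all genes). The part of cumulus cells in the stage differences of the complex was not tested.

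In Nat10-ZcKO oocytes the 3 MII libraries had 2.09%, 1.67% and 1.67% of their counts on the complex, against 1.11% in WT MII replicate 1, and the fits turned on which GV libraries entered. Padi6 had 47.2, 3790 and 44038 CPM in the knockout GV libraries and 1686, 1731 and 1240 CPM in the MII libraries. Nlrp5 had 70.8, 986 and 11179 CPM in GV and 915, 566 and 877 CPM in MII libraries, so that its groups overlapped too. Ooep with 0, 561 and 4886 CPM, Tle6 with 70.8, 1315 and 3590 CPM and Khdc3 with 0, 77.4 and 1010 CPM in knockout GV libraries had the same order, lowest in replicate 1 and highest in replicate 3. A count of 0 in replicate 1 allows up to 70.8 CPM, which is also the value of 3 counts there. In the knockout MII libraries Ooep had 564, 164 and 601 CPM, Tle6 670, 525 and 739 CPM and Khdc3 58.5, 27.3 and 12.5 CPM. Zbed3 had 142, 2553 and 2739 CPM in GV and 16966, 13685 and 13188 CPM in MII libraries, which did not overlap. All 3 MII libraries were higher for 28.6% of 2225 genes tested, and Zbed3 was the 1 member among them. With all 6 libraries edgeR called none of the 5 members tested, none of them at an unadjusted p under 0.05 either, against 16.2% of genes called in either direction; Khdc3 did not pass the filter on low counts. DESeq2 called Padi6 lower (log2 fold change −3.79, adjusted p = 0.038) and Zbed3 higher (2.79, adjusted p = 0.038), 1 member in each direction where 13.7% of genes were called lower and 21.8% higher. Scaling to the oocyte markers, of which GV replicate 1 held 2 counts, turned Zbed3 to −0.31. It moved the median of all genes from −0.07 to −6.29.

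Without Nat10-ZcKO GV replicates 1 and 2, 5 members were called lower and Zbed3 higher, against 19.6% and 19% of 3741 genes. The log2 fold changes were −5.14 ± 0.59 for Padi6 (edgeR, adjusted p = 1.1e-15), −4.12 ± 0.51 for Nlrp5, −3.74 ± 0.47 for Ooep, −2.76 ± 0.47 for Tle6 and −5.22 ± 0.53 for Khdc3. Zbed3 rose by 2.10 ± 0.71 (edgeR, adjusted p = 0.011). These values rest on 1 GV library, which was assumed to vary like the MII libraries. The cumulus gene Ptx3 had 221, 62 and 127 counts in the knockout MII libraries and 1, 0 and 1 in the GV libraries. Amh, of the same marker list, went the other way, with 4, 2 and 0 counts in MII and 67, 13 and 76 in GV libraries. Of 10 granulosa and cumulus markers tested in this fit, 5 had log2 fold changes above 0 (median −0.58, against 0.11 over all genes). The part of cumulus cells was again not tested. Knockout and WT fits share no libraries, and in each the order from the largest fall to the smallest began with Padi6 or Khdc3 and ended with Tle6 among the members called lower.

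**Figure D3:**
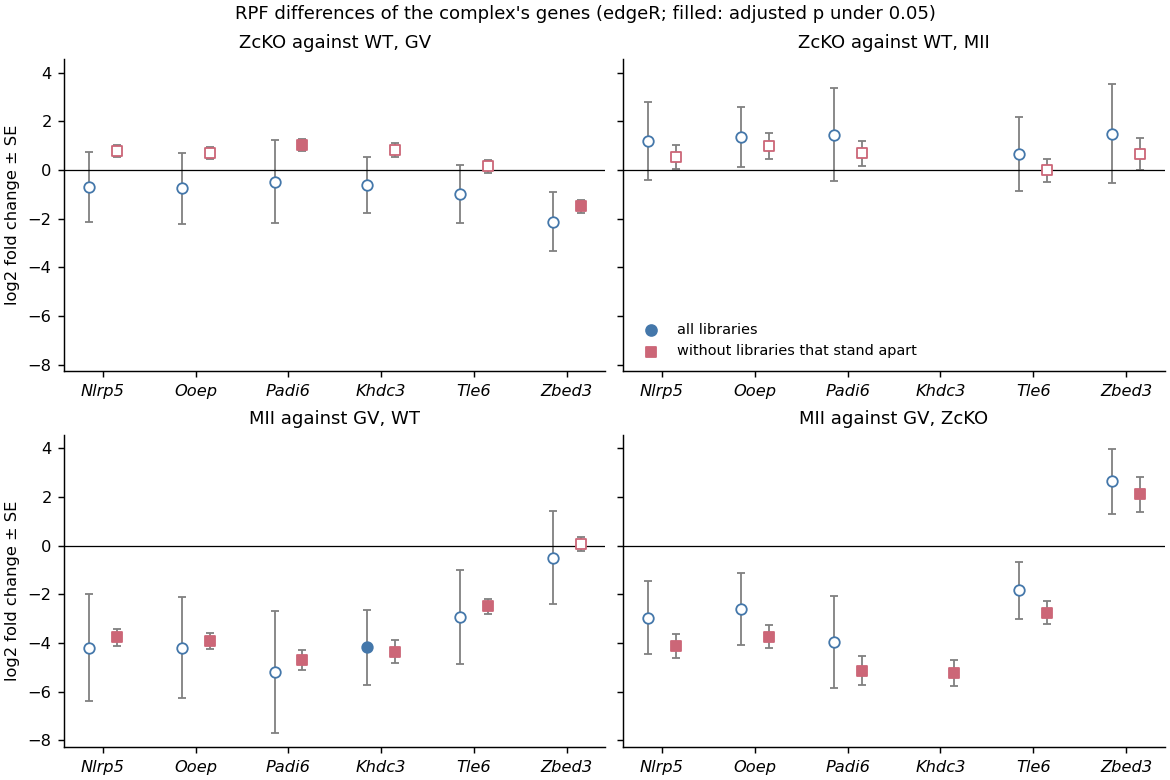
Fitted log2 fold change ± SE of each gene in 4 comparisons, with all libraries (circles) and without the libraries that stand apart (squares); filled symbols have an adjusted p under 0.05 in edgeR, and Khdc3 has no symbol where it did not pass the filter on low counts. Without those libraries, 5 genes lie between −2.49 and −4.69 for MII against GV in WT oocytes and between −2.76 and −5.22 in Nat10-ZcKO oocytes, and Zbed3 lies at 0.07 and 2.10.

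The composition of the complex's own counts does not use the library total. Zbed3 made up 22.9%, 13.9% and 18.4% of the 6 genes' counts in WT GV libraries and 79.3% in WT MII replicate 1 (exact 95% interval 77.2% to 81.3%, counting error only). In Nat10-ZcKO MII libraries it made up 81.3%, 82.0% and 79.2%, on both sides of the WT value. In Nat10-ZcKO GV replicate 3 it made up 4.06% (3.78% to 4.35%), below each WT GV library, and in replicates 1 and 2 it made up 42.9% of 14 counts and 27.5% of 480 counts. Padi6 took 47.1%, 52.8% and 51.7% in WT GV, 65.3% in Nat10-ZcKO GV replicate 3, and 7.44% to 10.4% over the knockout MII libraries and WT MII replicate 1. Nlrp5 took 14.4%, 16.3% and 14.7% in WT GV and 16.6% in Nat10-ZcKO GV replicate 3. Ooep took 6.65% to 7.41% in WT GV and 7.24% there, so the balance of Nlrp5 and Ooep to each other was alike in these libraries.

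**Figure D4:**
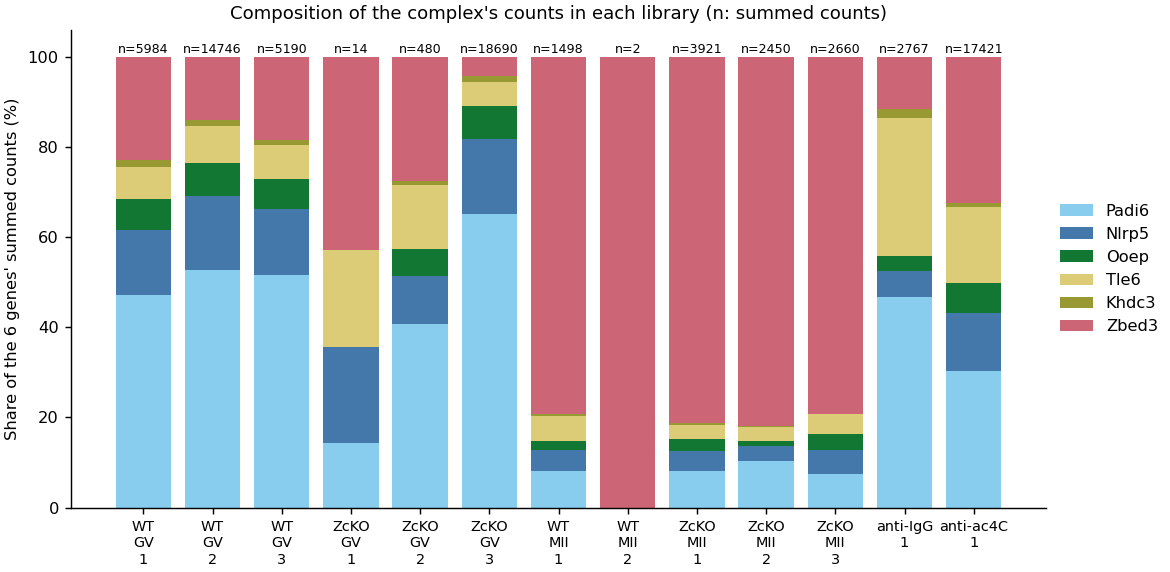
Share of the 6 genes' summed counts (percent) taken by each gene in all 13 libraries, with the summed counts above each bar. Zbed3 makes up 79.2% to 82.0% in the 4 MII libraries other than WT replicate 2, 13.9% to 22.9% in WT GV and 4.06% in Nat10-ZcKO GV replicate 3; the bars of 14 and 2 counts carry little information.

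Between genotypes at the GV stage neither edgeR nor DESeq2 called a member. No member reached an unadjusted p under 0.05 in edgeR, nor did the 4 in DESeq2 that had one, since DESeq2 gave no p for Nlrp5 and Khdc3. Of 1765 genes edgeR called 0 (0%) and DESeq2 called 3; before adjustment, 60 higher and 25 lower genes had p under 0.05 in edgeR. Zbed3 was the 1 member whose groups did not overlap, lower in all 3 knockout libraries than in WT, as were 12.8% of genes. Its log2 fold change was −2.12 ± 1.20 (edgeR, adjusted p = 0.90), and the other 5 lay between −0.99 and −0.48. Scaling to the oocyte markers, of which knockout replicate 1 held 2 counts, moved the median of all genes from −0.06 to 7.09. It turned Zbed3 to 1.82, Tle6 to 2.02 and Nlrp5 to 1.18.

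Nat10-ZcKO GV replicate 3 held 4.76% of its counts on oocyte markers, above each WT GV library. Zp2 and Zp3 held 5911 and 4908 of these 13194 counts. In the WT GV libraries they held 1267 and 1183 of 3819, 3568 and 2802 of 9465, and 1210 and 1041 of 3346. Fitted against WT, 5 of 11 markers tested had log2 fold changes above 0 (median −0.05), with Zp2 at 1.12 and Bcl2l10 at −1.06. Most members were above WT in replicate 3 too. Nlrp5, Ooep, Padi6 and Khdc3 had 11179, 4886, 44038 and 1010 CPM in it, above each WT GV library, where 22.4% of genes were. Tle6, at 3590 CPM, lay within the WT range, and Zbed3, at 2739 CPM, lay below each WT library, where 38.5% of genes were. Against the 3 WT libraries, with the lone library assumed to vary like them, Padi6 was called higher (1.02 ± 0.23, edgeR, adjusted p = 0.0077) and Zbed3 lower (−1.50 ± 0.28, adjusted p = 0.0014), among 0.98% of 3879 genes called higher and 1.03% called lower. Nlrp5 (0.78), Khdc3 (0.82), Ooep (0.70) and Tle6 (0.15) were not called, with adjusted p from 0.073 to 0.86 in edgeR. The ratio of Zbed3 to the oocyte marker counts also carries the Zp2 and Zp3 counts of replicate 3. This ratio was 0.0575 in replicate 3 against 0.358, 0.217 and 0.285 in WT GV. In knockout replicate 2 it was 0.237, within the WT range. In knockout replicate 1 Zbed3 had 6 counts on 2 marker counts, a ratio of 3, above WT. On this scale 1 of the 3 knockout libraries was lower. Replicate 3 alone gives no replicate check of the knockout at this stage.

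At the MII stage neither edgeR nor DESeq2 called a member or gave one an unadjusted p under 0.05, while in edgeR 4 of 2097 genes (0.191%) were called. Padi6 and Zbed3 had higher CPM in all 3 Nat10-ZcKO libraries than in both WT libraries. Nlrp5 did so by its listed values, and the same held for 30% of genes, but its 0 in WT MII replicate 2 allows up to 623 CPM, above the 566 CPM of knockout replicate 2. Zbed3, with 13188 to 16966 CPM in the knockout against 8810 and 415 CPM in WT, differed by 1.496 ± 2.04 on the log2 scale (edgeR, adjusted p = 0.997), and the other 4 members tested by 0.66 to 1.45. Without WT MII replicate 2, 6 of 2924 genes (0.205%) were called and no member, with values of 0.98 ± 0.54 for Ooep, 0.68 ± 0.51 for Padi6, 0.64 ± 0.65 for Zbed3, 0.53 ± 0.50 for Nlrp5 and −0.01 ± 0.48 for Tle6. Ooep, at 164 to 601 CPM in the knockout and 215 CPM in WT MII replicate 1, and Tle6, at 525 to 739 CPM and 623 CPM, overlapped between genotypes. Khdc3 had 11, 4 and 2 counts in the knockout and 4 and 0 in WT, and was not tested.

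The difference between the genotype effects at MII and at GV was itself tested over all 11 libraries. No member was called or had an unadjusted p under 0.05 in edgeR, where 0.906% of 3863 genes were called. Zbed3 had the largest value, 4.04 ± 2.72 (edgeR, adjusted p = 0.81). Scaling to the oocyte markers, of which knockout GV replicate 1 held 2 counts, moved the median of all genes from 0.96 to −6.89. It turned the value of Zbed3 to −1.03. Without the 3 libraries that stood apart it was 2.03 ± 0.67 (edgeR, adjusted p = 0.52, unadjusted p = 0.0049), the other members lay between −0.84 and 0.19, and edgeR called 0 of 4029 genes (0%), where 158 higher and 105 lower genes had p under 0.05 before adjustment. DESeq2 over the 11 libraries called no member, with Zbed3 at an unadjusted p of 0.013 and no p for Khdc3, and 1 gene higher and 48 lower in all.

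Partners of the complex and other maternal effect genes give its surroundings. Of 10 genes whose proteins are named with the complex or the lattices, 1 was called lower and 0 higher from GV to MII in WT oocytes. Of all 2045 genes 235 were called lower and 204 higher, and the medians were −1.67 for the 10 and −0.44 for all. Tuba1c, a tubulin, was that gene, at −2.81 ± 1.10 (edgeR, adjusted p = 0.049). Without WT MII replicate 2, 3 of the 10 had log2 fold changes above 0 (median −1.85, against −0.35 over all genes). Nlrp14, another oocyte NLR protein, was at −3.54, Nlrp2 at −2.66 and Uhrf1, a chromatin protein that also resides in the cytoplasm of oocytes, at −2.19. Spin1, a meiotic spindle protein, was among those above 0, at 1.52. In Nat10-ZcKO oocytes without GV replicates 1 and 2, 1 of the 10 was above 0 (median −1.75, against 0.11 over all genes). Nlrp14 was at −4.09 there. With all 6 libraries edgeR called none of 9 tested, against 16.2% of 2225 genes called in either direction.

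Of 15 maternal effect genes outside the complex, 4 were higher and 5 lower of 12 tested in WT oocytes without replicate 2 (median −1.10, against −0.35 over all genes, of which 20.9% were higher and 24% lower). With replicate 2, edgeR called 0 of 11. Btg4, an adaptor of mRNA deadenylation, rose by 3.19 and Tet3, a methylcytosine dioxygenase, by 3.36, while Zar1, an RNA-binding protein of stored mRNA, fell by 3.69. In the knockout fit with all 6 libraries Btg4 (4.68 ± 0.99, edgeR, adjusted p = 0.016) and Tet3 (3.64 ± 0.97, adjusted p = 0.030) were the 2 of 11 called, both higher, as were 10.2% of genes. In Nat10-ZcKO GV replicate 3 against WT GV, Btg4 was lower as Zbed3 was, at −2.40 ± 0.47. The 12 genes tested there had a median of 0.02, against −0.04 over all genes. No gene of either list was called by edgeR between genotypes at MII, with or without WT MII replicate 2.

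The genes most like each member over the 11 libraries, by Pearson r of log2(CPM + 10) among genes with at least 100 counts, are given as a description. Nlrp14 came first for Nlrp5 (r = 0.996), Padi6 (0.996) and Tle6 (0.993), Oas1e for Ooep (0.989), Fbxw21 for Khdc3 (0.995) and Sephs2 for Zbed3 (0.973). The next were Padi6 and Skp1a for Nlrp5, Tubg2 and Nlrp2 for Ooep, Nlrp5 and Uchl1 for Padi6, Fbxw16 and Aass for Khdc3, Ldhb and Dnmt1 for Tle6, and Rhpn2 and Dclk2 for Zbed3. Padi6 and Nlrp5 were thus rank 2 in each other's order (r = 0.992). Zbed3 stood at ranks 474 to 913 of 2197 in the orders of the other 5 (r from 0.449 to 0.701). Without the 3 libraries that stood apart, the r of Zbed3 with each of these 5 was negative, from −0.67 to −0.61. Zbed3 then stood at ranks 1405 to 1447 of 2196 in their orders. These correlations are across libraries that differ in depth, stage and oocyte content. Without the 3 libraries that stood apart, at most 1 of the 3 named genes stayed among the top 3 of any member, and Astl, Scg3, Zp2, Col1a2, Pfdn5 and Llgl1 came first for Nlrp5, Ooep, Padi6, Khdc3, Tle6 and Zbed3.

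In the pull-downs of WT GV mRNA the 6 genes split into 3 with a higher and 3 with a lower CPM under anti-ac4C than under anti-IgG; without scaling to library totals, which differed 8.35-fold, all 6 ratios were above 2. Zbed3 had 5639 counts with anti-ac4C and 318 with anti-IgG, or 5807 and 2736 CPM, a ratio of 2.12 (exact 95% interval 1.90 to 2.38, counting error only). Nlrp5 had 2332 and 1394 CPM, a ratio of 1.67 (1.43 to 1.97), and Ooep 1172 and 783 CPM, a ratio of 1.497 (1.21 to 1.87). These intervals lie above 1, but the median ratio over 4680 genes with at least 50 counts was 1.27, within the interval of Ooep. Zbed3, Nlrp5 and Ooep stood above 69.0%, 61.1% and 56.6% of these genes, and Padi6, Tle6 and Khdc3 above 12.7%, 9.04% and 4.49%.

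Padi6 had 5425 CPM with anti-ac4C and 11116 CPM with anti-IgG, a ratio of 0.488 (0.459 to 0.519). Tle6 had 3066 and 7322 CPM, a ratio of 0.419 (0.388 to 0.452), and Khdc3 139 and 456 CPM, a ratio of 0.305 (0.220 to 0.427). Past 2-fold higher, 1 member of 6 stood beside 32.8% of 4680 genes with at least 50 counts, and past 2-fold lower 3 members stood beside 13.4%, with a median ratio of 1.27 over these genes. The interval of Zbed3 reached below 2 and that of Padi6 above 0.5. With 1 library per antibody, 116232 counts with anti-IgG and 970997 with anti-ac4C, no replicate check and no input library used here, the ratios compare these 2 libraries and not antibodies. With TMM scaling Padi6 moved to 0.544, Tle6 to 0.467 and Zbed3 to 2.37, so 2 members were past 2-fold lower.

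**Figure D5:**
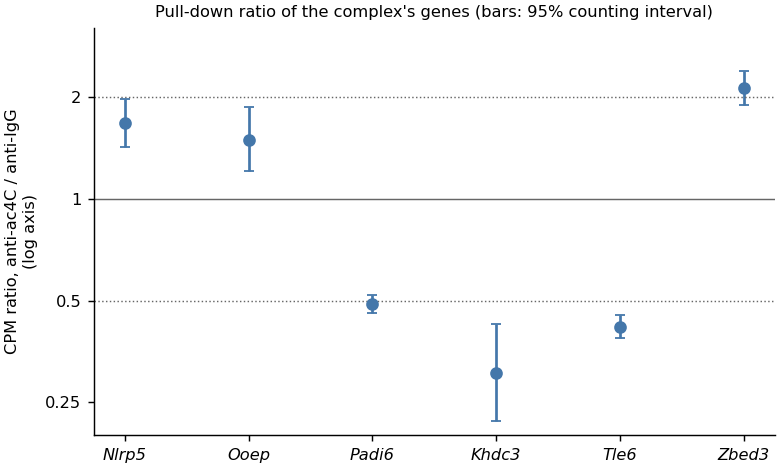
Ratio of CPM, anti-ac4C over anti-IgG (log axis), for each gene in WT GV oocytes, with exact 95% intervals that cover counting error only; the solid line is a ratio of 1 and dotted lines mark 2 and 0.5. Zbed3, Nlrp5 and Ooep lie above 1, at 2.12, 1.67 and 1.497, and Padi6, Tle6 and Khdc3 below, at 0.488, 0.419 and 0.305. The median over 4680 genes was 1.27. Without scaling to library totals the ratios of Padi6, Tle6 and Khdc3 are 4.08, 3.50 and 2.55.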

How the data were processed

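Ribo-seq (11 libraries) and acRIP-seq (2 libraries) of mouse oocytes were grouped by the labels. The authors deposited counts per gene, whole numbers without normalization, 1 table per library: counts on the CDS for Ribo-seq and on protein-coding genes for acRIP-seq. The submitters' processing notes name cutadapt, STAR, HTSeq and mm10; versions, annotation, strand setting, and removal of rRNA and PCR duplicates are not given in the sources used here. Oocytes were treated with cycloheximide and RNase I before poly(A) tailing and template switching. The acRIP-seq tables end with 5 summary rows, left out of totals (no feature: 46.7% of anti-IgG and 17.1% of anti-ac4C fragments).

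From the deposited counts, CPM and TPM were computed with the union CDS length of GENCODE M21, to which 22399 identifiers matched and 43 did not. Comparisons used edgeR 4.0.16 in R 4.3.3 (filterByExpr, TMM, glmQLFit, glmQLFTest, prior count 0.125) with Benjamini-Hochberg adjustment over all genes tested and a threshold of 0.05. Each fit held the groups compared, and the interaction all 11 libraries. The SE was derived from the log2 fold change and the F statistic. Intervals are Clopper-Pearson at 95%. Nothing in the labels ties replicates to separate animals, so p-values measure the spread between libraries, which may be technical. The steps of the stage comparisons were tested on simulated data. There every library was drawn with the same fixed spread, which was not estimated from these data. The 3 libraries that stood apart were given the median depth. The test therefore does not cover libraries like them. Python 3.11.15 with scipy 1.17.1 did the rest.

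Alternatives were DESeq2 1.42.0, library size scaling, scaling to the oocyte markers, omitting the filter, fitting all 11 libraries jointly, leaving out single replicates or the 3 libraries that stood apart, and the replicate number as a block. The members, gene lists and markers were chosen with earlier results of these data known. The text names the 6 members, Nat10 and the 3 genes most like each member. It also names up to 3 genes of a list with the smallest p in a comparison. Spin1, Ptgs2 between stages, Gm20509 and Zp1 to Zp3 are outside this rule. They were picked once their values were known, as was the search of 3′ ends.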

Additional observations from a re-analysis of the deposited data

Results flagged for a closer look

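Zbed3 was singled out because its CPM differed between genotypes in opposite directions at the 2 stages, although neither difference passed the test: it was lower in all 3 Nat10-ZcKO GV libraries than in all WT GV libraries, and higher in all 3 Nat10-ZcKO MII libraries than in both WT MII libraries. At GV the log2 fold change was −2.12 (edgeR, adjusted p = 0.90), or 1.82 with scaling to the oocyte markers. That scaling moved the median of all genes from −0.06 to 7.09. At MII the log2 fold change was 1.496 (edgeR, adjusted p = 0.997), or 0.64 ± 0.65 without WT MII replicate 2, which held 2 counts of Zbed3. The test of the difference between the 2 stages gave 4.04 on the log2 scale and did not pass (edgeR, adjusted p = 0.81). Nat10-ZcKO GV replicates 1 and 2 held 0.00472% and 1.08% of counts on oocyte markers, and WT MII replicate 2 held 4815 counts in all. Their part in this value was not tested beyond leaving the 3 libraries out, which gave 2.03 (edgeR, adjusted p = 0.52).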

How the results depend on the processing

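The depth of WT MII replicate 2 and the low counts on oocyte markers in Nat10-ZcKO GV replicates 1 and 2 limited the comparisons that use them, and a left-out library that leaves 1 in its group makes the lone library vary as the others by assumption. Over the alternatives for members' log2 fold changes, 296 values kept direction and side of the threshold, 40 newly passed it, 6 no longer passed it (all Khdc3 in the WT stage comparison) and 24 changed sign; the cause was not tested. DESeq2 gave no p, adjusted or not, for Nlrp5 and Khdc3 between genotypes at GV and for Khdc3 in the interaction.

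For MII against GV in WT oocytes, 1 member was called lower, and 5 were with DESeq2 (41.3% of all genes called lower), 4 with library size scaling (31.7%), 0 without the filter on low counts, 0 with all 11 libraries in 1 fit, and 5 with scaling to the oocyte markers (19.5%). Leaving out single replicates gave 0 to 6, with 0 without any 1 WT GV library, 5 without MII replicate 2 (24%) and 6 without MII replicate 1 (72.5%). In Nat10-ZcKO oocytes, where no member was called, DESeq2 called 1 higher (21.8% of all genes) and 1 lower (13.7%), omitting the filter gave 1 lower (Khdc3; 0.85%), and leaving out GV replicates 1 and 2 gave 1 higher (19%) and 5 lower (19.6%). Leaving out single replicates gave 0 to 5 lower, with 5 without GV replicate 1 (12.1%). Between genotypes at GV, where none was called, leaving out knockout replicates 1 and 2 gave 1 higher (0.98%) and 1 lower (1.03%), and single replicates gave 0 to 1 lower (Khdc3, −4.09, without knockout replicate 3, where 10.1% of genes were lower). At MII single replicates gave 0 to 5 higher, with 5 without WT replicate 1 (47.3%), which leaves the library of 4815 counts alone, and in the interaction 0 to 2 higher, with 2 without the same library (15.8%).

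Signs changed as follows. Between genotypes at GV, scaling to the oocyte markers gave 1.18 for Nlrp5, 2.02 for Tle6 and 1.82 for Zbed3, a scaling that moved the median of all genes from −0.06 to 7.09. Leaving out knockout replicates 1 and 2 gave 0.78 for Nlrp5, 0.70 for Ooep, 1.02 for Padi6, 0.82 for Khdc3 and 0.15 for Tle6. Scaling to the oocyte markers gave 0.73 for Zbed3 in the WT stage comparison (median of all genes 0.09). In the knockout one it gave −0.31 (median −6.29). In the interaction it gave −0.22 for Nlrp5, −1.57 for Tle6 and −1.03 for Zbed3 (median −6.89). Leaving out the 3 libraries gave −0.36 for Nlrp5, −0.45 for Padi6, −0.84 for Khdc3 and −0.26 for Tle6 in the interaction. Over single replicates left out, Padi6 between genotypes at GV ran from −3.70 to 0.12, Tle6 at MII from −0.014 to 9.44, and Zbed3 in the WT stage comparison from −7.68 to 0.069. In the knockout stage comparison Nlrp5 ran from −3.49 to 0.83, Ooep from −3.14 to 0.92 and Tle6 from −2.36 to 0.16. Without scaling, 6 members were past 2-fold higher and 0 lower in acRIP-seq, with ratios of 4.08 for Padi6, 2.55 for Khdc3 and 3.50 for Tle6. By CPM in place of TPM, positions in WT GV oocytes were 1 for Padi6, 2 for Zbed3, 3 for Nlrp5, 4 for Tle6 and 5 for Ooep, and Padi6 and Zbed3 each ran from 1 to 2 over single replicates left out.

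Of all genes, edgeR called 0 between genotypes at GV and 4 at MII, 439 between stages in WT and 360 in knockout oocytes, and 35 in the interaction. DESeq2 gave 3, 15, 891, 789 and 49, and no filter on low counts 41, 0, 0, 423 and 10. Library size scaling gave 24 at MII and 925 in WT, and 1 fit of all libraries gave 25 at GV, 19 at MII and 78 in WT. Scaling to the oocyte markers gave 1, 0, 966, 43 and 0. Single replicates left out gave 0 to 385, 0 to 1451, 39 to 1902, 0 to 778 and 0 to 948, and the libraries that stood apart left out gave 78, 6, 1464, 1445 and 0.

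With the replicate block, 0 members were called in each comparison, also between stages in WT oocytes, and 0, 0, 0, 125 and 8 of all genes in the order above. Deviations of libraries with the same number correlated at −0.067 to 0.188, and those with different numbers at −0.188 to 0.155. With 2 WT MII libraries the deviations mirror each other, so 0.188 and −0.188 are the same value with its sign turned. The ranges overlapped, and the numbers were not taken as pairs.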

Other observations

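Genes with CPE letters in the last 100 bases of the annotated transcript were compared with the other genes between GV and MII, since Zbed3 alone of the 6 members held them. In WT oocytes without MII replicate 2, 249 of 688 genes with the letters were called higher at MII (36.2%) and 72 lower (10.5%), with a median log2 fold change of 0.87. Of 2401 genes without them, 417 were higher (17.4%) and 636 lower (26.5%), with a median of −0.66. In Nat10-ZcKO oocytes without GV replicates 1 and 2, 34.5% of 864 genes with the letters were higher and 7.52% lower, and 14.9% of 2681 genes without them were higher and 21.9% lower. With all libraries, genes with and without the letters had medians of 0.60 and −0.67 in WT oocytes. The medians were 0.98 and −0.36 in Nat10-ZcKO oocytes. Without the libraries that stood apart, Zbed3 itself was at 0.07 in WT and at 2.10 in Nat10-ZcKO oocytes. Genes with the letters had medians of 0.87 and 1.42 in these 2 fits. The part of the letters in the values of Zbed3 was not tested. The 2 sets of genes were not tested against each other, and the search was chosen after the values of Zbed3 were seen.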
